A study of Mus musculus with 40 samples.

Results

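The genes described here are 7 markers of reactive gliosis, *Gfap*, *Vim*, *Nes*, *Serpina3n*, *Lcn2*, *Cd44* and *S100a6*, chosen by symbol from a table of 54307 genes. Each symbol matched 1 identifier, and all 7 genes passed the minimum mean of 1 normalized count in retina and in choroid. The values came from 20 mice with laser-induced choroidal neovascularization, each giving 1 retina and 1 choroid library, so that 40 libraries were examined. The question was whether the expression of these genes after laser injury depended on microglia and other mononuclear phagocytes, which were depleted in 10 of the mice. All eyes were collected on day 3 after 6 laser burns per eye, so the effect of the laser itself was not measured here.

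The mice formed 4 groups of 5. All mice were C57BL/6J animals of both sexes with floxed *Tgfbr2* alleles, which encode the type II receptor of TGFβ. The *Tgfbr2ΔEC* mice also carried Cdh5-CreERT2, a tamoxifen-inducible Cre recombinase under the promoter of the endothelial gene *Cdh5*, while controls were littermates without the recombinase. All mice received tamoxifen eye drops for 5 days from an age of 6 to 7 weeks. Of each genotype, 1 group received the CSF1 receptor inhibitor PLX5622 (PLX) in the diet from the first tamoxifen treatment until the end, and 1 did not. The groups are named control – PLX, *Tgfbr2ΔEC* – PLX, control + PLX and *Tgfbr2ΔEC* + PLX.

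Reactive gliosis is the response of Müller glia, the radial glia of the retina, and of retinal astrocytes to injury. It is known by an increase of the intermediate filament proteins GFAP, vimentin and nestin, which form the cytoskeleton of these cells, and of secreted and surface proteins that are also made by other cell types. Microglia release cytokines such as interleukin 1α, tumour necrosis factor and the complement component C1q, which can induce a reactive state in astrocytes. Signals of the interleukin 6 family act through the transcription factor STAT3, an activator of *Gfap*.

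The deposited normalized counts of a library summed to 22256892 to 24507335 in retina and to 24718469 to 25956180 in choroid, and 1 read was worth roughly 0.743 to 1.12 normalized counts in retina and 0.893 to 1.19 in choroid. *Tgfbr2* itself ranged from 66.4 to 293 normalized counts in the retinas and from 8729 to 12801 in the choroids. It did not differ between genotypes by limma (log2 difference without PLX of -0.32, adjusted p = 0.985, in retina and -0.05, adjusted p = 0.925, in choroid), and RNA of whole tissue does not isolate endothelial cells. The paper reports the deletion by PCR and qPCR of choroidal tissue and in the endothelium of both tissues. Of the 15 markers of mononuclear phagocytes examined, such as *Cx3cr1* and *C1qa*, 15 fell with PLX in retina and 14 in choroid, where *Tmem119* was the exception (0.03), with a median log2 difference of -5.81 and -2.02. Their summed level was 2648 to 6240 normalized counts in the 10 retinas without PLX and 430 to 572 in the 10 retinas with PLX. In choroid it was 53006 to 65906 without PLX and 16303 to 27573 with PLX, so phagocyte transcripts remained in the depleted choroid.

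The tissues were checked for the glia that the genes are named for. *Slc1a3*, the glutamate transporter of Müller glia, had a mean of 4763 normalized counts in the retinas without PLX and of 969 in the choroids without PLX. *Aqp4*, the water channel of their end feet, had 3146 and 256. In these choroids *Slc1a3* ranged from 222 to 2006 normalized counts and *Aqp4* from 70.3 to 553. These 2 genes were chosen after their values were seen and do not stand for the whole list. Of the 12 homeostatic genes of Müller glia and astrocytes, 6 were called higher in choroid than in retina and 5 lower by limma, with a median log2 difference of 0.44, against 40.8% of all genes tested called higher and 82% called in either direction. A score of 7 fibroblast and mural cell markers, the mean of log2(normalized count + 1) over the list, was 5.55 to 7.44 in the retinas and 14.98 to 15.53 in the choroids. A score of 10 neural retina markers, most of them photoreceptor genes, was 15.79 to 16.46 in the retinas. In the choroids it ranged from 7.61 to 12.87, so the choroids held unequal amounts of neural retina RNA.

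The promoters of 3 of the genes are shown because these genes are the ones on which the results turn, the filament gene *Gfap* and the genes *Serpina3n* and *Lcn2* that fell with PLX in a tissue. Each sequence is the 250 bases before the start of the Ensembl canonical transcript, in GRCm39, 5′ to 3′ on the strand of the gene. Capitals mark the matches to 4 motifs that were searched on both strands, TTCNNNGAA of STAT factors, TGANTCA of AP-1, TTGCNNAA of C/EBP factors and, for NF-κB, GGGA and TTCC with 2 bases between them.
*Gfap*, chr11:102788186-102788435, minus strand: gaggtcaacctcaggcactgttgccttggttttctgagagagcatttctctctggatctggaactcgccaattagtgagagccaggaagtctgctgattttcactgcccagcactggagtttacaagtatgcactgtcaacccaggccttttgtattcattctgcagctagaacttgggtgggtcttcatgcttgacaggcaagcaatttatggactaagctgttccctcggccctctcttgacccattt
*Serpina3n*, chr12:104372560-104372809, plus strand: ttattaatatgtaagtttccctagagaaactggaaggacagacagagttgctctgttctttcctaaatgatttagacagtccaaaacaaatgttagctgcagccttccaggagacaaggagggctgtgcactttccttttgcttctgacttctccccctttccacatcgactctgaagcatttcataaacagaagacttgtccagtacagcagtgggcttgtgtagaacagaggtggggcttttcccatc
*Lcn2*, chr2:32277810-32278059, minus strand: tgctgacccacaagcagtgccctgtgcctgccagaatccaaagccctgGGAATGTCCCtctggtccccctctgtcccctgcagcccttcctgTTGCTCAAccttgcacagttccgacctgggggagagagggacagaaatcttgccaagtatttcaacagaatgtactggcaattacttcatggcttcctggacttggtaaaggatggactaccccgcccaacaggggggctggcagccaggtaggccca

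In the window of *Lcn2* there was 1 match to the NF-κB motif, from 202 to 193 bases before the start, and 1 match to the C/EBP motif, from 158 to 151 bases before it, and these did not overlap. The windows of the other 6 genes had no match to the 4 motifs. Over the 250-base windows of all 21537 protein-coding genes, 1.31% had a match to the NF-κB motif, 9.37% to the C/EBP motif, 7.66% to the STAT motif and 6.18% to the AP-1 motif. A match describes the letters of this window only.

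In retina, depletion of phagocytes lowered *Lcn2* 4.01-fold and no other gene of the 7 passed the test. *Lcn2* encodes lipocalin 2, a secreted protein that binds iron-carrying siderophores and is released by reactive glia and by neutrophils. The filament genes *Gfap*, *Vim* and *Nes* were expressed with and without PLX. Over both genotypes, 1 of 7 genes was called between mice with and without PLX, against 1.09% of all 23243 genes tested and 1.08% called lower (limma, with a gene called where its p, adjusted over all genes tested, was 0.05 or less). The median log2 difference of the 7 genes was -0.15, beside 0.00255 for all genes tested. In whole tissue, fewer cells of a type and less RNA per cell cannot be told apart.

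*Lcn2* (chromosome 2, 32274645 to 32278264, minus strand) had 879, 349, 790, 604 and 940 normalized counts in the 5 control – PLX retinas. It had 878, 398, 213, 83.0 and 99.3 in the *Tgfbr2ΔEC* – PLX retinas. With PLX it had 576, 42.8, 121, 57.2 and 86.2 in controls, and 105, 165, 77.5, 64.0 and 57.4 in *Tgfbr2ΔEC* mice. The highest levels were those of mice without PLX, of 4 controls and of mouse 6 of the *Tgfbr2ΔEC* group, and the diets overlapped because of mouse 11 of the control + PLX group and mice 9 and 10 of the *Tgfbr2ΔEC* – PLX group. The group means were 712 ± 239, 334 ± 329, 177 ± 225 and 93.8 ± 43.9 normalized counts (SD, n = 5 each, in the order of the groups above). Over both genotypes the log2 difference was -2.004 (standard error 0.44, 95% interval -2.91 to -1.10, adjusted p = 0.0187 from limma; exact permutation test of diet within genotype, two-sided, p = 0.00164). In controls, where 1 of 7 genes was called against 0.736% of all genes, it was -2.62 (adjusted p = 0.0486 from limma), a call that held in 5 of 20 fits with 1 mouse left out, and in *Tgfbr2ΔEC* mice, where 0 of 7 were called against 0.516%, it was -1.38 (adjusted p = 1.0 from limma). These effects were not shown to differ between the genotypes, since the difference of 1.239 had a 95% interval of -0.57 to 3.05 (adjusted p = 1.0 from limma).

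*Gfap* (chromosome 11, 102778159 to 102791738, minus strand), the filament gene most used to mark gliosis, had 1276, 2150, 2074, 695 and 1514 normalized counts in the control – PLX retinas and 1690, 1680, 1520, 1334 and 628 in the *Tgfbr2ΔEC* – PLX retinas. With PLX it had 3089, 2056, 2779, 1570 and 1428 in controls and 1286, 1592, 1193, 1161 and 1347 in *Tgfbr2ΔEC* mice. The 4 groups overlapped, with the highest values in 2 control + PLX mice and the lowest in mice 4 and 10, which received no PLX. The log2 difference with PLX was 0.28 (95% interval -0.15 to 0.71, adjusted p = 1.0 from limma; exact permutation test, two-sided, p = 0.254). A loss of *Gfap* as large as that of *Lcn2* lies outside this interval.

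*Vim* (chromosome 2, 13578738 to 13587639, plus strand), which encodes the filament protein that Müller glia make at all times, ranged from 2330 to 4568 normalized counts without PLX and from 2468 to 5663 with PLX. Its log2 difference was -0.11 (95% interval -0.40 to 0.19). *Nes* (chromosome 3, 87878385 to 87887758, plus strand), the nestin gene of progenitors and reactive glia, had 154 to 366 normalized counts in the retinas without PLX, 172 to 401 in those with PLX and a log2 difference of -0.06 (95% interval -0.40 to 0.28). The ranges of the diets lay over each other for both filament genes.

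*Serpina3n* (chromosome 12, 104372810 to 104380597, plus strand), a secreted serine protease inhibitor, had 2787, 2709, 3551, 1533 and 3004 normalized counts in the control – PLX retinas and 3001, 2321, 2249, 1434 and 1091 in the *Tgfbr2ΔEC* – PLX retinas. It had 3508, 1480, 3509, 1554 and 1628 in the control + PLX retinas and 1341, 2016, 1220, 1211 and 1373 in the *Tgfbr2ΔEC* + PLX retinas. Most retinas with PLX were low and mice 11 and 13 were as high as the controls without PLX. The log2 difference was -0.36 (95% interval -0.79 to 0.07, adjusted p = 0.922 from limma). *Cd44* (chromosome 2, 102641486 to 102732010, minus strand), the surface receptor for hyaluronan, differed by -0.15 (95% interval -0.50 to 0.20). *S100a6* (chromosome 3, 90520140 to 90535843, plus strand), a calcium-binding protein, differed by -0.35 (95% interval -1.14 to 0.45), and its highest value of 1262 normalized counts was in mouse 1 of the control – PLX group, where the others ranged from 65.3 to 293. Without mouse 1 the difference with PLX was -0.06, and without mouse 4, the lowest of that group, it was -0.59, neither past the adjustment.

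**Figure D1:**
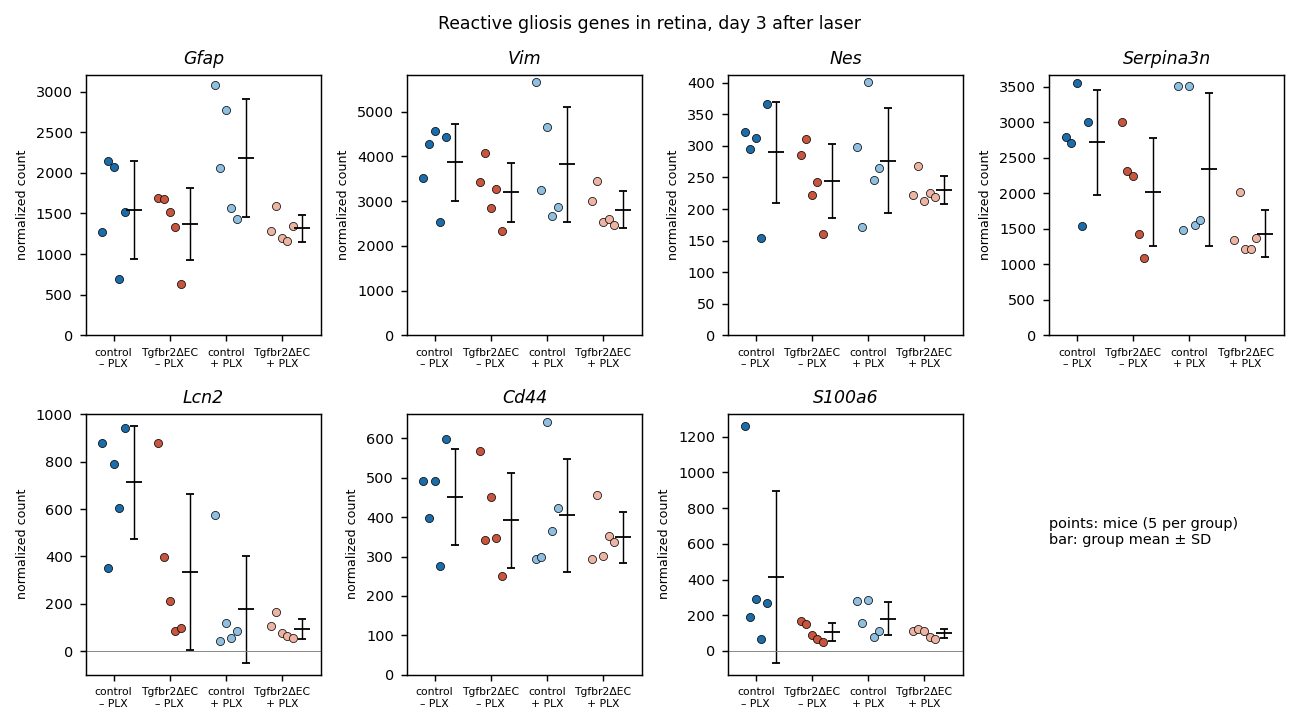
Normalized counts of the 7 genes (vertical axes, from 0) in the retinas of the 4 groups, with a point for each of the 5 mice and a bar for the group mean ± SD. *Lcn2* is high in the controls without PLX (349 to 940) and low in most retinas with PLX, while the points of *Gfap*, *Vim* and *Nes* overlap between the diets.

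In choroid, depletion lowered *Serpina3n* 1.35-fold, and the other 6 genes did not pass the test. Here 1 of 7 genes was called over both genotypes, against 7.13% of all 23619 genes tested and 5.06% called lower, and the median log2 difference of the 7 genes was -0.10, beside 0.000541 for all genes. With upper-quartile scaling the calls among all genes were 1005 higher and 1027 lower, in place of 489 and 1195, and *Serpina3n* was still called. Unadjusted, 3 of the 7 had p under 0.05 in limma, *Serpina3n*, *Cd44* and *Lcn2*, as did 19.3% of all genes, and all of these 3 had a negative difference.

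*Serpina3n* had 29191, 33599, 23354, 21723 and 31522 normalized counts in the control – PLX choroids and 32843, 24543, 30737, 21249 and 20926 in the *Tgfbr2ΔEC* – PLX choroids. With PLX it had 18570, 21832, 26266, 20243 and 19695 in controls and 17416, 17391, 18911, 18219 and 20007 in *Tgfbr2ΔEC* mice. Within *Tgfbr2ΔEC* mice all choroids with PLX lay below all those without it, a separation in this direction that 5.16% of all tested genes had, while in controls the diets overlapped. The log2 difference over both genotypes was -0.43 (standard error 0.10, 95% interval -0.63 to -0.22, adjusted p = 0.00765 from limma; exact permutation test, two-sided, p = 0.000787). It was -0.38 in controls (adjusted p = 0.184 from limma) and -0.48 in *Tgfbr2ΔEC* mice (adjusted p = 0.0571 from limma), and the difference between these was -0.10 (95% interval -0.51 to 0.31). Within a genotype 0 of 7 genes were called, against 3.75% of all genes in controls and 4.06% in *Tgfbr2ΔEC* mice, and 2 of the 7 had an unadjusted p under 0.05 in limma in each, as did 13.8% of all genes in controls and 15.4% in *Tgfbr2ΔEC* mice. Some cell markers of these choroids were called for the diet too. Of these, 4 of 7 endothelial, 2 of 7 fibroblast and mural and 1 of 6 Schwann cell markers rose. Among all 23619 genes tested 489 were called higher, a number that depended on the scaling. For the pigment epithelium 0 of 7 markers and for the neural retina 0 of 10 were called. The median log2 difference was 0.24 for the endothelial, 0.20 for the fibroblast and mural, 0.18 for the Schwann cell and 0.23 for the pigment epithelium markers. For the neural retina markers it was -1.10, with a negative difference in 10 of 10, none of them past the adjustment. In the *Tgfbr2ΔEC* choroids, where *Serpina3n* separated the diets, it was -2.19 with 1 of 10 called, *Rom1*, a photoreceptor outer segment gene, and in the control choroids it was 0.12. When the fit took the neural retina score as a covariate, *Serpina3n* differed by -0.44 over both genotypes and was still called (adjusted p = 0.0189 from limma), and in *Tgfbr2ΔEC* mice it differed by -0.51 (adjusted p = 0.205 from limma). The part of the other marker lists in the result was not tested.

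The transcript of *Serpina3n* resembles those of its neighbours in the Serpina3 family, among them *Serpina3m* with 81.2% identity over 1594 bases and the pseudogene *Serpina3e-ps* with 84.9% over 1229 bases, so that reads may have been divided between them. In choroid *Serpina3m* had a mean of 705 normalized counts and a log2 difference of -0.51 with PLX (adjusted p = 0.00294 from limma), and *Serpina3e-ps* had a mean of 211 and a difference of -0.51 (adjusted p = 0.0351 from limma). Both levels were small beside the 23412 normalized counts of *Serpina3n*, which was the mean of the 20 choroids.

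*Cd44* had 3569, 4182, 3716, 3478 and 5711 normalized counts in the control – PLX choroids and 3055, 3446, 4800, 3285 and 2084 in the *Tgfbr2ΔEC* – PLX choroids. With PLX it had 2690, 2084, 3889, 2990 and 2486 in controls and 2717, 3163, 3466, 2366 and 2203 in *Tgfbr2ΔEC* mice. The controls without PLX were the highest group, and the diets overlapped. The log2 difference of -0.39 (95% interval -0.68 to -0.10) did not pass the adjustment (adjusted p = 0.105 from limma), and it did without mouse 10 (adjusted p = 0.0247 from limma) or without mouse 13 (adjusted p = 0.0444 from limma).

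*Lcn2* ranged from 115 to 340 normalized counts in the choroids without PLX and from 55.9 to 418 in those with PLX, and the value of 418 was that of mouse 12 in the control + PLX group. Its log2 difference was -0.82 (95% interval -1.43 to -0.21, adjusted p = 0.108 from limma), and without mouse 12 it was -1.01 (adjusted p = 0.0122 from limma). The effect of PLX on *Lcn2* was 1.19 less negative in choroid than in retina on the log2 scale (95% interval 0.06 to 2.31), which did not pass the adjustment (adjusted p = 0.445 from limma). Between the tissues, 0 of the 7 genes were called for a different effect of PLX, against 1.37% of all 24317 genes tested, and 1 had an unadjusted p under 0.05 in limma, as did 10.2% of all genes.

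*Gfap* was the most variable of the 7 genes in choroid. It had 3020, 111, 5141, 194 and 1824 normalized counts in the control – PLX choroids, 1493, 1230, 2535, 220 and 5177 in the *Tgfbr2ΔEC* – PLX choroids, 4169, 1640, 1575, 2122 and 3380 in the control + PLX choroids, and 1243, 3539, 5002, 2464 and 1467 in the *Tgfbr2ΔEC* + PLX choroids. Mice 2, 4 and 9, all without PLX, were below 221 normalized counts while the other choroids had 1230 or more, and the highest choroid had 46.5 times the lowest. In the same choroids the highest was 7.47 times the lowest for *Lcn2*, 2.74 times for *Cd44* and between 1.93 and 2.20 times for the other 4 genes. The coefficient of variation was 67.3% for *Gfap* and 59.8% for *Lcn2*. The log2 difference of *Gfap* with PLX was 1.09 (95% interval -0.23 to 2.41, adjusted p = 0.372 from limma), which spans from 0.851-fold to 5.30-fold.

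In the choroids, *Vim*, *Nes* and *S100a6* differed little between the diets. Their log2 differences were -0.10 (95% interval -0.33 to 0.12), 0.01 (-0.25 to 0.28) and 0.01 (-0.26 to 0.28). *Vim* ranged from 24430 to 48036 normalized counts over the 20 choroids, *Nes* from 2204 to 4388 and *S100a6* from 2820 to 6200, and in each gene the ranges of the diets overlapped.

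**Figure D2:**
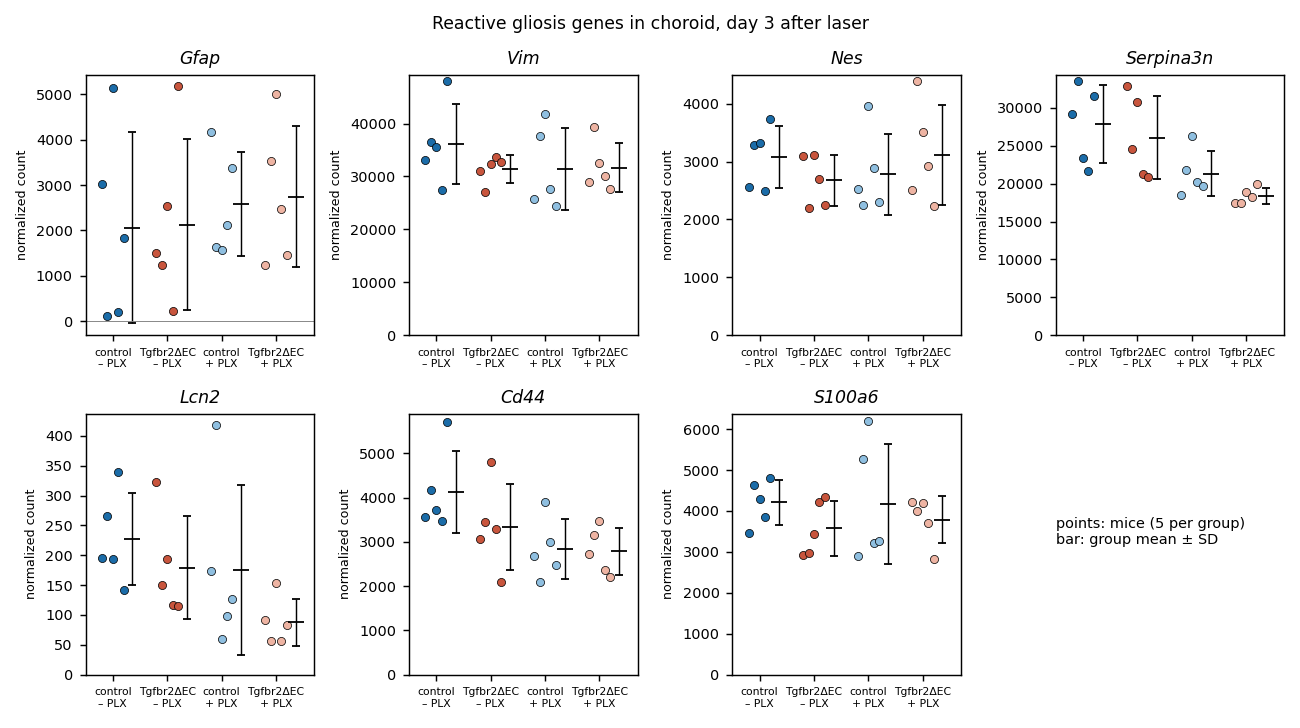
Normalized counts of the 7 genes (vertical axes, from 0) in the choroids of the 4 groups, with a point for each of the 5 mice and a bar for the group mean ± SD. *Serpina3n* is lower with PLX, 17391 to 26266 against 20926 to 33599, and *Gfap* spreads from 111 to 5177.

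Endothelial deletion of *Tgfbr2* changed none of the 7 genes past the threshold. In retina, 0 of 7 were called between *Tgfbr2ΔEC* and control mice without PLX and 0 with PLX, against 0% of all 23243 genes in each diet, and 2 of the 7 had an unadjusted p under 0.05 in limma in each diet, as did 3.26% of all genes without PLX and 2.71% with PLX. In choroid, 0 of 7 were called in each diet, against 0.00423% of all 23619 genes. There 0 of 7 had an unadjusted p under 0.05 in limma, beside 9.25% of all genes without PLX and 3.76% with PLX. The interaction of diet and genotype gave 0 of 7 calls in each tissue, against 0% of all genes. It gave 0 unadjusted p under 0.05 in limma, beside 2.44% of all genes in retina and 6.57% in choroid. Averaged over both diets, a comparison added after the data were seen, 0 of 7 genes were called in retina, against 0% of all genes, and 4 of the 7 had an unadjusted p under 0.05 in limma, as did 3.78% of all genes. These were *S100a6* at -1.10 (95% interval -1.90 to -0.30), *Lcn2* at -0.93 (-1.84 to -0.03), *Serpina3n* at -0.54 (-0.97 to -0.11) and *Vim* at -0.33 (-0.63 to -0.04), each with an adjusted p of 0.928 from limma. The exact permutation p of genotype within diet (two-sided, not adjusted) was 0.0137, 0.0795, 0.029 and 0.0427 for these 4 genes. In choroid 0 of 7 were called over both diets, against 0.00847% of all genes, and 0 had an unadjusted p under 0.05 in limma, beside 6.6% of all genes. In the choroids without PLX the neural retina score was 11.995 ± 0.68 in *Tgfbr2ΔEC* mice and 9.63 ± 1.28 in controls (SD, n = 5 each), and 10 of 10 neural retina markers had a positive log2 difference (median 2.48), none of them past the adjustment. The part of this score in the genotype comparison was not tested beyond the fit with the score as a covariate, in which 0 of 7 genes were called.

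In the retinas without PLX all 7 genes had a lower mean in *Tgfbr2ΔEC* mice, and none of these differences passed the adjustment. In the same comparison 15 of 15 phagocyte markers had a negative log2 difference, none of them past the adjustment, with a median of -0.27 beside -0.27 for the 7 genes. The 5 sex markers had a median difference of -2.03 without PLX and -3.34 with PLX, negative for 4 of 5 in each diet, and none of them passed the adjustment. In the retinas with PLX all 7 genes again had a negative difference (median -0.39), while 6 of 15 phagocyte markers did (median 0.08), and none passed the adjustment. A sex score, the log2 level of *Xist* minus the mean log2 level of the 4 Y-linked markers, was fitted as a covariate, and all 7 differences were then smaller in size and still negative in each diet, with 0 of 7 called. Without PLX *S100a6* then differed by -1.23, *Lcn2* by -1.48 and *Gfap* by -0.02 (-0.15 without the covariate). With PLX *S100a6* differed by -0.34 (-0.75 without the covariate), *Gfap* by -0.45, *Serpina3n* by -0.46 and *Vim* by -0.26 (-0.39 without the covariate). The score of the pigment epithelium markers went the other way. Without PLX it was 7.92 ± 0.59 in control and 8.28 ± 0.19 in *Tgfbr2ΔEC* retinas (SD, n = 5 each). With PLX it was 8.29 ± 0.79 and 8.73 ± 0.18. The part of the phagocyte and pigment epithelium markers in the differences of the 7 genes was not tested. The differences of largest size were those of *Lcn2*, at -1.55 (95% interval -2.84 to -0.27, adjusted p = 0.985 from limma; exact permutation test, two-sided, p = 0.0714), and of *S100a6*, at -1.45 (95% interval -2.58 to -0.32, adjusted p = 0.985 from limma; exact permutation test, p = 0.0794). *S100a6* was 1262, 189, 293, 65.3 and 268 normalized counts in controls and 170, 152, 91.1, 66.1 and 50.1 in *Tgfbr2ΔEC* mice, and without mouse 1 its difference was -0.88 (adjusted p = 0.933 from limma). In the retinas with PLX, *Gfap* differed by -0.67 (adjusted p = 1.0 from limma; exact permutation test, p = 0.0238) and *Serpina3n* by -0.61 (adjusted p = 1.0 from limma; exact permutation test, p = 0.111). For 5 against 5 mice the smallest p of the exact test is 0.00794.

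**Figure D3:**
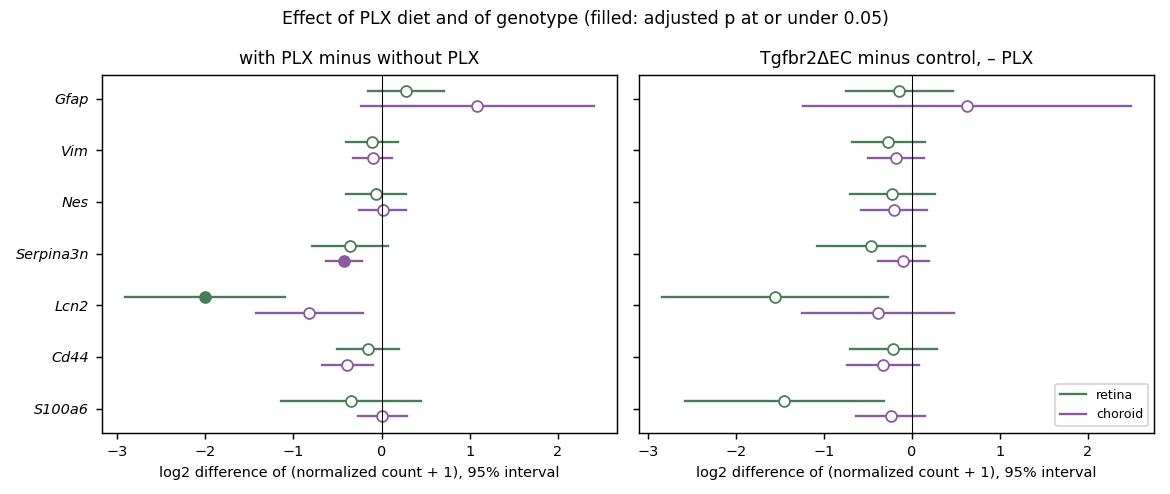
Log2 differences (horizontal axes) of the 7 genes with their 95% intervals from limma, for PLX over both genotypes at the left and for *Tgfbr2ΔEC* against control without PLX at the right, with retina and choroid in separate colours. Filled points mark adjusted p at or under 0.05, which are *Lcn2* in retina (-2.004) and *Serpina3n* in choroid (-0.43) for PLX, and no gene for the genotype.

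The tissues differed in the level of 5 of the 7 genes, which were higher in choroid in 20 of 20 mice, against 40.8% of all 24317 genes called higher and 82% called in either direction. The log2 difference of choroid minus retina was 4.77 (standard error 0.21) for *S100a6*, 3.54 (0.12) for *Serpina3n*, 3.49 (0.11) for *Nes*, 3.28 (0.09) for *Vim* and 3.03 (0.11) for *Cd44*, with adjusted p between 2.38e-28 and 6.33e-22 from limma. *Gfap* was the exception among the filament genes, with a difference of 0.13 (95% interval -0.58 to 0.84) and a higher level in choroid in 12 of 20 mice. *Lcn2* differed by -0.45 (95% interval -1.01 to 0.11) and was higher in choroid in 7 of 20 mice, and without mouse 12 the difference was -0.63 (adjusted p = 0.029 from limma). *Vim*, *Cd44* and *S100a6* are also expressed by fibroblasts, endothelial cells and macrophages, and 7 of 7 fibroblast and mural, 6 of 7 endothelial and 15 of 15 phagocyte markers were called higher in choroid as well, against the same 40.8% of all genes. Their part in the result was not tested, and which cells of the choroid held *Nes* and *Serpina3n* was not determined.

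Per kilobase of the canonical transcript, the order of the genes in the retinas without PLX was *Vim* (1609 normalized counts per kilobase), *Serpina3n* (1052), *Lcn2* (572), *Gfap* (506), *S100a6* (334), *Cd44* (74.5) and *Nes* (43.6). The level of *S100a6* rested on mouse 1, without which it was 191 normalized counts per kilobase. The ranges of neighbours in this order overlapped throughout. That of *Serpina3n* (485 to 1578) overlapped those of *Vim* (1063 to 2083), *Lcn2* (90.7 to 1028), *Gfap* (218 to 747) and *S100a6* (64.2 to 1618), and the range of *S100a6* also overlapped those of *Vim* and *Cd44* (44.5 to 106). *Cd44* overlapped *Lcn2* and *Nes* (25.1 to 59.7) too. The overlaps of *S100a6* with *Serpina3n* and *Vim* rested on mouse 1 alone, which had 1262 normalized counts where the next retina had 293. In the retinas with PLX the order was *Vim* (1511), *Serpina3n* (837), *Gfap* (609), *S100a6* (179), *Lcn2* (148), *Cd44* (66.6) and *Nes* (41.3). The level of *Lcn2* there rested in part on mouse 11, at 576 normalized counts. Its median with PLX was 81.8 normalized counts beside a mean of 135. In the choroids without PLX, *Vim* (15398), *Serpina3n* (11981) and *S100a6* (4992) were followed by *Gfap* (728), *Cd44* (660), *Nes* (470) and *Lcn2* (222), with *Gfap* covering the ranges of *Cd44*, *Nes* and *Lcn2*. These levels are means of 10 libraries per length and cover both genotypes. In the retinas without PLX the order of *Lcn2* and *Gfap* depended on the genotype, at 779 against 536 normalized counts per kilobase in controls and 366 against 477 in *Tgfbr2ΔEC* mice. In the choroids without PLX the order of *Gfap* and *Cd44* did too, at 716 against 731 in controls and 741 against 590 in *Tgfbr2ΔEC* mice.

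In the retina, the 7 genes varied together from mouse to mouse. After the mean of each group was subtracted, the 21 pairs of genes had a Pearson correlation between 0.35 and 0.87 over the 20 retinas, with a median of 0.68. In choroid the same pairs ranged from -0.33 to 0.78, with a median of 0.11 and 13 of 21 above 0. The highest pair in retina was *Gfap* and *Vim* (0.87), and the highest in choroid was *Vim* and *S100a6* (0.78). All genes of a library share its depth and its tissue composition, and these pairs were examined after the values had been seen. Pairs of other genes were not examined, so the correlation is not shown to be particular to these 7 genes.

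**Figure D4:**
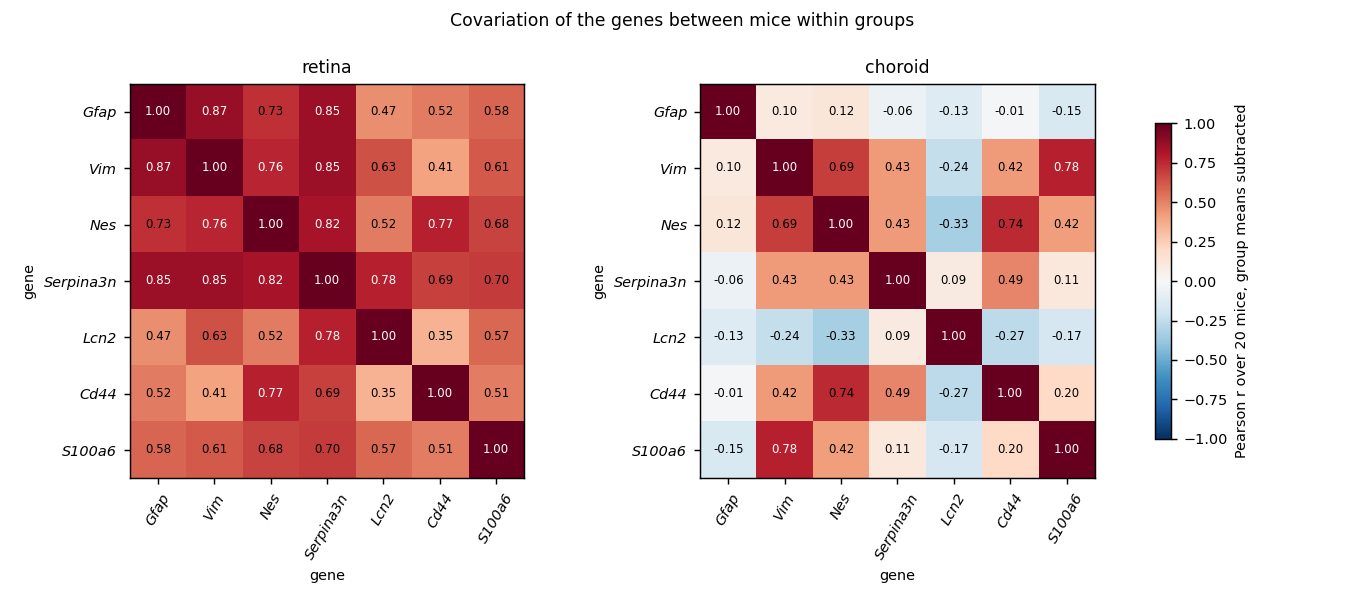
Pearson correlation of each pair of the 7 genes over 20 retinas (left) and 20 choroids (right), on log2(normalized count + 1) with group means subtracted, from -1 (blue) to 1 (red). All retina pairs are positive (0.35 to 0.87), and *Gfap* is near 0 with the other 6 genes in choroid (-0.15 to 0.12).

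With *Gfap*, the correlation over the 20 retinas was 0.87 for *Vim* (Spearman's rho 0.85), 0.85 for *Serpina3n* (rho 0.83) and 0.73 for *Nes* (rho 0.66). The adjusted permutation p of the Pearson correlation within groups was 0.00012, 0.00054 and 0.0301 and that of rho was 0.0006, 0.0006 and 0.0228, over the 12 correlations with *Gfap* in both tissues. Without the 2 retinas farthest from the median of *Gfap*, the correlation was 0.84, 0.78 and 0.46, so that of *Nes* rests in part on these retinas. For *S100a6*, *Cd44* and *Lcn2* it was 0.58, 0.52 and 0.47 and did not pass the adjustment (adjusted permutation p = 0.125, 0.127 and 0.135). In choroid the correlations of *Gfap* with the other 6 genes lay between -0.15 and 0.12 (adjusted permutation p of at least 0.755).

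By the same measure, the genes most like *Gfap* in retina among the 17180 genes whose mean was 10 or more were *Vim* (0.87), *Lrrc75a* (0.86), *Serpina3n* (0.85), *Ptdss2* (0.84) and *Taf13* (0.84). In choroid, among 17597 genes, they were *Unc13c* (0.98), *Kif5a* (0.97), *Sox1* (0.95), *Mlc1* (0.95) and *Nkx6-1* (0.94). *Kif5a* is a kinesin of neuronal axons, *Mlc1* a membrane protein of astrocyte end feet and *Sox1* a transcription factor of neural progenitors. None of the 5 genes most like *Gfap* in choroid was among the 5 of retina. These correlations are descriptions over 20 libraries, and no p-value is attached.

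The level of the 7 genes in choroid was set beside the amount of neural retina RNA. Over the 20 choroids, the correlation of the genes with the neural retina score lay between -0.30 for *Nes* and 0.14 for *Lcn2*, and 0 of 7 passed the adjustment (adjusted permutation p between 0.658 and 0.827). For *Gfap* it was -0.15 (Spearman's rho -0.14), and 0.12 without the 2 choroids farthest from the median score. Without these 2 choroids it went from -0.22 to -0.48 for *S100a6*, from -0.22 to -0.45 for *Vim* and from -0.30 to -0.41 for *Nes*, so that the values for these genes depend on which choroids are included.

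Within the 10 retinas without PLX, 4 of the 7 genes were correlated with the phagocyte score, the mean of log2(normalized count + 1) over the 15 markers. Only the 7 genes were examined, so the share of all genes that would pass is not known. A link particular to these genes is therefore not shown. The correlation was 0.81 for *Serpina3n* (Spearman's rho 0.72), 0.80 for *Nes* (rho 0.77), 0.80 for *Lcn2* (rho 0.81) and 0.79 for *Cd44* (rho 0.79), each with an adjusted permutation p of 0.0472 over 28 correlations in the 2 tissues and 2 diets. The adjusted permutation p of rho was 0.0784 to 0.0949 and did not pass. Without the 2 retinas farthest from the median score the correlations were 0.68, 0.62, 0.68 and 0.55. *Gfap* had a correlation of 0.56 (rho 0.35, adjusted permutation p = 0.21) and the lowest of the 7. Mice 4 and 10 had the lowest levels of *Gfap*, *Vim* and *Nes* among these retinas, and their scores were 7.16 and 6.66, where the 10 retinas ranged from 6.66 to 8.13. Mouse 9 had a lower score than mouse 4, of 6.92, with 1334 normalized counts of *Gfap* and 3276 of *Vim*. With PLX the correlations in retina lay between 0.03 and 0.58, and 0 of 7 passed the adjustment (adjusted permutation p of at least 0.187). In choroid 0 of 14 passed, with the highest for *Nes* without PLX (0.75, adjusted permutation p = 0.0679).

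**Figure D5:**
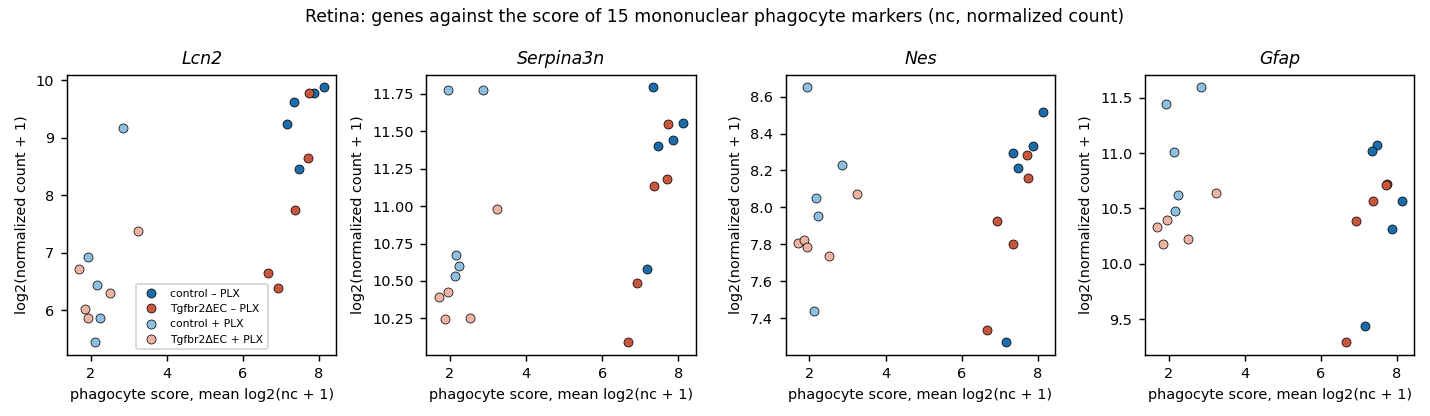
Levels of 4 genes in the 20 retinas (vertical axes, log2(normalized count + 1)) against the phagocyte score (horizontal axes, mean log2(normalized count + 1) of 15 markers), with a point for each mouse coloured by group. The score is 6.66 to 8.13 without PLX and 1.70 to 3.24 with PLX, most retinas with PLX have low *Lcn2*, and the points of *Gfap* overlap between the diets, with the 2 highest among the retinas with PLX and the 2 lowest among those without.

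Other genes of the reactive response were examined from lists of genes described for reactive astrocytes. Their counts of calls stand against 1.09% of all genes called in retina and 7.13% in choroid. Among 8 pan-reactive genes, 1 was called in retina, *Steap4*, a metalloreductase, which fell from a mean of 93.3 ± 51.8 to 22.5 ± 10.2 normalized counts (SD, n = 10 mice each; log2 difference -1.91, adjusted p = 0.00216 from limma). In choroid *Steap4* rose from 1934 ± 169 to 2518 ± 396 (log2 difference 0.37, adjusted p = 0.00477 from limma), and *Timp1*, an inhibitor of metalloproteinases, fell (-0.36, adjusted p = 0.0398 from limma). The difference of the effects on *Steap4* between the tissues was 2.28 (adjusted p = 6.57e-05 from limma). Among 11 genes of the A1 class, *Srgn*, the proteoglycan serglycin of granules, fell in retina (-1.02), and *Srgn* (-0.58), *Psmb8* (-0.65) and *H2-D1* (-0.55) fell and *Fbln5* rose (0.29) in choroid. *Psmb8* is a subunit of the immunoproteasome and *H2-D1* a class I histocompatibility molecule. Of the A2 class, 1 of 11 genes was called in retina and 3 of 12 in choroid, and *Cd14*, a receptor for lipopolysaccharide that is also a marker of phagocytes, fell in both tissues (-1.80 and -2.38).

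Of the ligands that act on glia, 4 of 12 fell in retina, against 1.08% of all genes called lower there and 5.06% in choroid, *C1qa* (-7.34), *Il1a* (-2.96), *Tnf* (-1.40) and *Tgfb1* (-0.98). *Il1a* and *Tnf* were low in retina even without PLX, with means of 9.47 and 2.07 normalized counts, and their fitted differences depend on the added 1. *Il6* was listed at 0 in all 20 retinas. In choroid 7 of 13 ligands fell, among them *C1qa* (-3.40), *Osm* (-1.84) and *Il1a* (-1.25), and 1 rose, *Fgf2*. *Osm*, oncostatin M, is a cytokine of the interleukin 6 family. Of the 13 receptors and members of the STAT3 pathway, *Il6ra* fell in both tissues (-2.07 in retina and -1.44 in choroid), *Fgfr1* rose in choroid (0.27), and the others were not called. Among these *Stat3* differed by -0.02 in retina and *Socs3*, a target of STAT3, by 0.06. Among 12 homeostatic genes of Müller glia and astrocytes, 0 were called in retina (limma, with 2 at an unadjusted p under 0.05, *Pax2* at 0.64 and *S100b* at 0.42, beside 6.28% of all genes) and 1 in choroid, the potassium channel gene *Kcnj10* (-0.52, adjusted p = 0.025 from limma).

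*Lcn2* is also a product of neutrophils. Of the 8 neutrophil markers listed, 4 could be tested in retina, and all 4 had a negative log2 difference with PLX (median -1.27). Of these, 1 was called, against 1.09% of all genes tested. It was *Csf3r*, the receptor for granulocyte colony-stimulating factor, which fell (-3.42). The summed level of the 8 markers was 24.8 to 221 normalized counts in the retinas without PLX and 2.79 to 32.01 in those with PLX. Most of it was *Csf3r*, at 20.8 to 181 without PLX and 0 to 26.7 with PLX. Single markers, chosen after their values were seen, were low in retina, with *Camp* at 0 in all 20 retinas, *Ly6g* between 0 and 2.04 normalized counts and *S100a8* between 0 and 7.94. In choroid the score of the 8 markers had a mean of 4.44 without PLX and 4.47 with PLX. Their summed level there was 512 to 1037 normalized counts without PLX and 358 to 647 with PLX. The part of neutrophils in the levels of *Lcn2* was not tested.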

How the data were processed

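RNA of retina and choroid was sequenced from 20 mice, 5 in each combination of genotype and diet as given by the labels. The authors checked reads with FastQC 0.11.5, quantified polyadenylated RNA with Salmon 1.10.1 against GRCm39, imported it with tximport and normalized it with DESeq2 1.36.0. They deposited the resulting signal per gene, called normalized counts here, which are not whole numbers. Of 54307 identifiers, 53700 matched GENCODE mouse release M39, which gave symbols, positions and transcript lengths. In a retina 45.4% to 68.9% of the low values, and in a choroid 53.0% to 71.6%, were whole multiples of 1 read to within 0.1, too few for a return to reads, and no count test was run. From the estimated worth of 1 read, a library held roughly 20987041 to 30524010 reads.

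All 4 groups of a tissue entered 1 limma fit (version 3.58.1, R 4.3.3) of log2(normalized count + 1), in which the prior variance followed a trend with the mean, and genes whose mean over the 20 libraries was below 1 were left out. Comparisons of the tissues used all 40 libraries. The paper analysed the tissues separately after quantification, so whether their normalized counts share a common scale is not known. The alternative scalings worked within each tissue and did not vary the scale between tissues. The log2 scale with the added 1 understates changes of low genes. P-values were adjusted over all genes by the Benjamini-Hochberg method, and an adjusted p at or under 0.05 was called. The procedure was tested on simulated data. The 7 genes were also tested singly by exact permutation of the mice (two-sided), with 63504 relabellings for the effect over both genotypes. Correlations used 100000 resamples. The numbers of the mice pair the retina and the choroid of 1 animal. Deviations of the paired libraries from their group means, over 15687 genes, had a correlation of -0.20 to 0.35 (median 0.18), and in 14 of 20 mice the retina was most like its own choroid. In the other 6 another choroid was more like it, with a correlation of up to 0.51 for mouse 11, so the pairing rests on the number that both library names share.

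The 7 genes and all gene lists were chosen with earlier results of these data known. All 7 genes are named. From each other list at most 4 genes per tissue with the lowest p among those called were named, along with genes most like *Gfap* by correlation and paralogs found with blastn 2.17.0 (at least 80% identity over 100 bases). *Slc1a3*, *Aqp4*, *Stat3*, *Socs3*, *Pax2*, *S100b*, *Il6*, *Fgf2*, *Camp*, *Ly6g*, *S100a8*, *Rom1* and the floxed gene were added outside this rule. Other steps ran in Python 3.11.15 with scipy 1.17.1, pandas 2.3.3, numpy 2.4.6 and matplotlib 3.10.9. Alternatives were other pseudocounts (0.5 and 5), a minimum mean of 10 or none, other scalings, a robust variance, a covariate for sex or for neural retina RNA, only the compared groups in the fit, the mouse as a block and leaving out each mouse. The sex of each mouse, the xCell neuronal percentage and the shrinkage of fold changes, which the authors' model held, were not used here.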

Additional observations from a re-analysis of the deposited data

Results flagged for a closer look

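In 4 of 56 groups of 5 mice examined over the 7 genes, the gap between a mouse and its nearest neighbour exceeded 0.71 of the range of its group. Chance gives about 2.8 such groups if they are independent and normally distributed. The gaps were taken on normalized counts, not on the log2 scale, and the genes share their mice. All 4 flagged values were in retina and were the highest of their group. Mouse 11 of the control + PLX group had 576 normalized counts of *Lcn2*, with the next mouse at 121 (gap 0.854 of the range), and its phagocyte score of 2.86 was the highest of its group. Mouse 17 of the *Tgfbr2ΔEC* + PLX group stood apart for *Serpina3n*, at 2016 against 1373 for the next mouse (gap 0.799), and for *Nes*, at 268 against 225 (gap 0.769). Its phagocyte score of 3.24 was the highest of the 10 retinas with PLX. Mouse 1 of the control – PLX group had 1262 normalized counts of *S100a6*, with the next mouse at 293 (gap 0.81). The part of the phagocyte score in these values was not tested.

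The effect of PLX on *Steap4* differed between the tissues. It fell in retina and rose in choroid, and the difference of the effects, choroid minus retina, was 2.28 on the log2 scale (standard error 0.36, adjusted p = 6.57e-05 from limma). Its mean was 93.3 against 22.5 normalized counts in the retinas without and with PLX and 1934 against 2518 in the choroids.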

How the results depend on the processing

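*Lcn2* in retina remained lower with PLX over both genotypes and past the threshold in all 20 fits without 1 mouse (log2 difference -2.30 to -1.76) and in all 8 other alternatives (adjusted p 0.0175 to 0.0308 from limma). *Serpina3n* in choroid did so in all 20 fits without 1 mouse (-0.47 to -0.38) and in all 9 other alternatives (adjusted p 0.00645 to 0.0244). Fits without 1 mouse gave 1 to 2 called genes for the effect of PLX in choroid over both genotypes, with *Cd44* added without mouse 10 or 13 and *Lcn2* without mouse 12. The call of *Lcn2* in control retinas alone was the least stable. The number of called genes went from 1 to 0 with a pseudocount of 5, a minimum mean of 10, no filter, a robust variance, the sex score as a covariate or only the groups compared, and was 0 to 1 without 1 mouse (adjusted p 0.00168 to 0.173). For PLX in *Tgfbr2ΔEC* choroids it went from 0 to 1, *Serpina3n*, with a minimum mean of 10 or with only the groups compared, and was 0 to 1 without 1 mouse (1 without mouse 4, 9, 10 or 13). Between choroid and retina it went from 5 to 6 without mouse 12, where *Lcn2* was called lower in choroid (log2 difference -0.63, adjusted p = 0.029 from limma). In the other comparisons it was the same under every alternative run, and no called difference changed its sign. The cause was not tested. Over all genes, a minimum mean of 10, which tests 17180 genes, lowered the calls for PLX in retina from 254 to 154 and in control retinas from 171 to 104. In the comparison of genotypes in choroids without PLX, the calls rose from 1 to 411 without mouse 15 and to 303 with only the groups compared, with 0 of the 7 genes among them.

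With the mouse as a block, the pairing of retina and choroid left the calls of the 7 genes between the tissues as they were. The difference of *S100a6* remained 4.77 with a standard error of 0.21, that of *Vim* 3.28 (0.08) and that of *Gfap* 0.13 (0.33). The effect of PLX on *Lcn2* between the tissues was 1.19 (adjusted p = 0.424 from limma) in place of an adjusted p of 0.445, and 0 of the 7 genes were called. The groups of 1 tissue came from different mice and share no pairing.

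These data limit what can be read for *Gfap* in choroid, where the interval of the PLX effect spans from -0.23 to 2.41. All eyes were lasered, so an injury effect was not measured. P-values cover the spread between mice of 1 experiment.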
